A study of Mus with 12 samples.

Results

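The 5 genes described are C1qa, C1qb and C1qc, which encode the 3 chains of C1q, and C3ar1 and C5ar1, which encode the receptors of the anaphylatoxins C3a and C5a. They were taken by name from a panel of 734 endogenous genes. All 5 passed the filter on low counts, which kept 682 genes. NanoString counting, in which each probe carries a fluorescent barcode that is counted molecule by molecule, was applied to kidney cells pulled out with an antibody to the macrophage surface antigen F4/80. They were taken from 3 mice labelled wild type for Aif1 (WT) and 3 labelled Aif1-/- (KO). Aif1 encodes Iba1, which binds calcium and bundles actin in macrophages. In every mouse the left kidney had undergone 30 min of ischemia, and both kidneys were taken on day 4. The right, uninjured kidney is called contralateral. The 12 libraries thus form 4 groups of 3, with mice 12, 26 and 36 in the WT groups and mice 17, 23 and 32 in the KO groups. The labels do not say that the deletion is limited to a cell type, and they give no strain, sex or age. The control kidney came from an animal whose other kidney was injured, so no group is free of injury elsewhere in the body.

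C1q is the recognition molecule of the classical complement pathway. It binds immune complexes, pentraxins and dying cells, and can mark them for removal by phagocytes as well as start the cascade. Each C1q molecule is built from the A, B and C chains, so all 3 genes are needed for it, and unlike most complement proteins, which the liver makes, C1q is made mainly by macrophages and dendritic cells. In the mouse assembly GRCm38.p6 the 3 genes are direct neighbours among the protein-coding genes of chromosome 4, in the order C1qb, C1qc, C1qa. C3ar1 and C5ar1 lie on chromosomes 6 and 7. Cleavage of C3 and C5 further down the cascade releases the small peptides C3a and C5a, and their G protein-coupled receptors on myeloid cells drive chemotaxis and activation. C5ar1 is also abundant on neutrophils.

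The libraries differed widely in RNA content. Total counts ran from 255274 to 904220, while the positive control probes, added in equal amount, differed 1.18-fold between libraries. The geometric mean of 20 housekeeping genes ran from 118 to 901. It was highest in mouse 12 (WT, both kidneys), followed by injured KO mouse 17. In mouse 12 the kidney tubule genes Klk1 and Egf took 12.98% of endogenous counts in the injured and 18.05% in the contralateral kidney, against 1.85% to 10.8% in the other 10 libraries. The 5 complement genes together took 0.75% and 0.45% there, against 1.02% to 3.24% elsewhere. Of 9 macrophage markers on the panel, all 9 passed the filter, and the F4/80 gene Adgre1 was counted 230 times or more in every library. The Aif1 probe gave 54 to 95 raw counts in all 12 libraries and did not separate the genotypes (log2 difference of the mouse means 0.26 ± 0.47, SE, KO minus WT, limma adjusted p = 0.96). In WT libraries too it gave only 57 to 72 raw counts (contralateral) and 74 to 95 (injured). The filter threshold was 53.1 and the highest negative control count 58, so the probe read little above background in either genotype. It therefore checks neither the genotype labels nor the deletion, and every direction between genotypes below rests on the labels. Since these are bulk samples, fewer cells of a type and less RNA per cell cannot be told apart.

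Raw counts of the 5 genes ran from 112, for C5ar1 in a contralateral KO kidney, to 7596, for C1qb in an injured KO kidney. The lowest value lay 3.56 times above the mean negative control of its library, which reads background. Below, levels are normalised counts, that is, raw counts divided by the relative TMM (trimmed mean of M values) size of each library.

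The first question was whether ischemic injury changed these genes within a mouse, with the responses of both genotypes averaged. All 5 rose in the injured kidney, by fitted factors of 1.86 to 2.17, and 6 of 6 mice had the higher level on the injured side for each. C1qc rose by 1.12 ± 0.24 on the log2 scale (SE, 6 mice), C1qb by 1.11 ± 0.27 and C1qa by 0.94 ± 0.23, with adjusted p of 0.0049, 0.014 and 0.016 (edgeR's quasi-likelihood test with mouse as a block, Benjamini-Hochberg over 682 genes). C5ar1 rose by 0.95 ± 0.18 (adjusted p = 0.0025) and C3ar1 by 0.90 ± 0.19 (adjusted p = 0.0046). Of all genes tested, 7.92% were called in this comparison, 7.33% higher and 0.587% lower. In the order of fold changes over the panel the 5 genes held ranks 20 to 33 of 682. Their median was 0.95, against -0.07 for all genes. A higher value in the injured kidney of all 6 mice was seen in 8.8% of the genes tested. Kidney epithelium markers did not move together in the same comparison. Of 4 on the panel 2 were called lower, Egf at -1.80 ± 0.49 (adjusted p = 0.033) and the tubule enzyme gene Fbp1 at -0.85 ± 0.24 (adjusted p = 0.038), and 1 higher, the injury marker Havcr1. Klk1 was not called, at -0.34 ± 0.50 (edgeR adjusted p = 0.77), with estimates of -0.89 in WT and 0.21 in KO mice. The summed normalised counts of the 4 ran from 12022 to 67639.7 in contralateral WT, 11878 to 16049.5 in contralateral KO, 3876 to 45763 in injured WT and 5561 to 23196 in injured KO libraries. The Klk1 and Egf share was lower on the injured side in 6 of 6 mice. The part of these markers in the rise of the 5 genes was not tested.

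**Figure D1:**
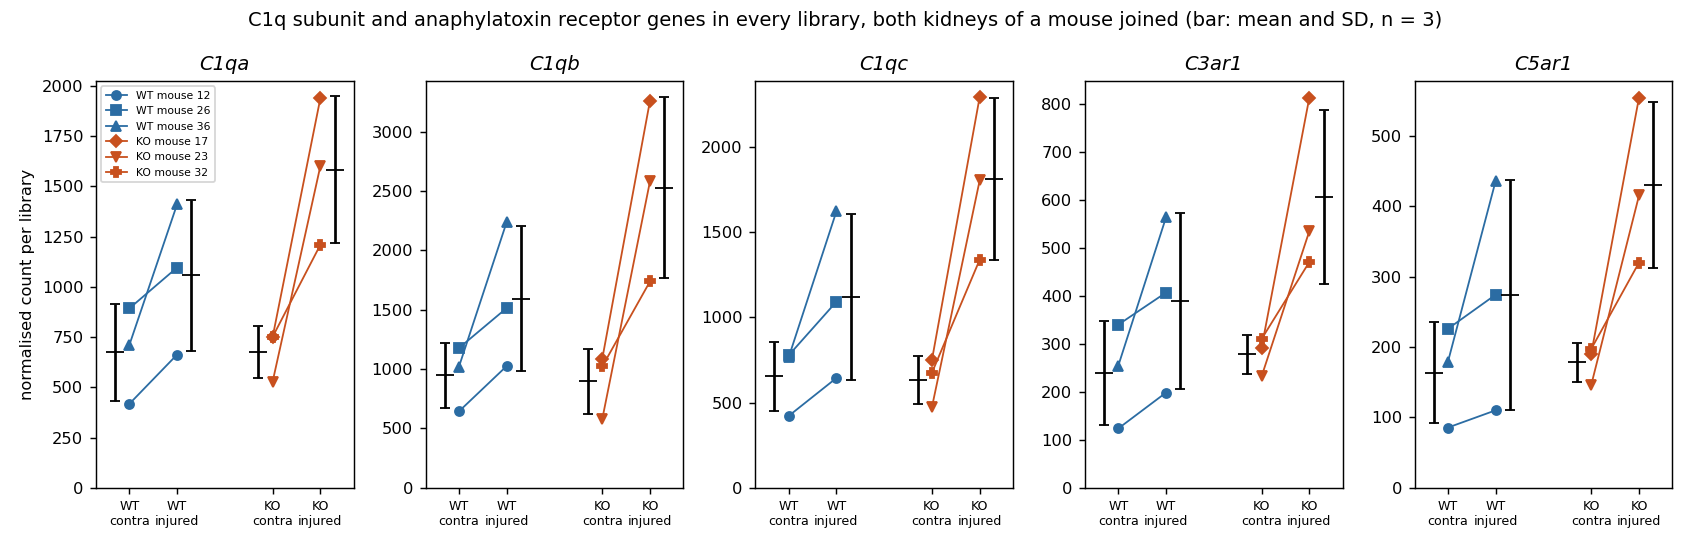
Normalised counts (y axis, linear, from 0) of the 5 genes in each library, with both kidneys of a mouse joined by a line, and the mean and SD of each group (n = 3) beside the points. Every line rises from the contralateral to the injured kidney, the injured KO libraries lie above the contralateral KO libraries for all 5 genes, and mouse 12 (circles) is the lowest of its group in each panel.

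C1qa encodes the A chain. In WT mice 12, 26 and 36 its contralateral level was 417, 893 and 710.4 normalised counts, and its injured level 663, 1096 and 1411. In KO mice 17, 23 and 32 the contralateral level was 749.8, 527 and 751, and the injured level 1939, 1601 and 1209.5. The lowest injured KO library thus lay above the highest contralateral KO library, while the WT ranges of the kidneys overlapped. Group means were 673 ± 239.8 and 676 ± 129 in contralateral kidneys of WT and KO mice, and 1057 ± 376 and 1583 ± 365 in injured ones (SD, n = 3 each). The contralateral means of the genotypes differed by far less than their spread. The injured means lay further apart, but their values overlapped.

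C1qb encodes the B chain. Its contralateral level in WT mice 12, 26 and 36 was 644, 1177 and 1021, and its injured level 1026, 1515 and 2240.45. In KO mice 17, 23 and 32 it was 1087, 578 and 1022 in the contralateral and 3262, 2583 and 1739 in the injured kidney. KO mouse 23, with the lowest contralateral C1qb of all 12 libraries, had the largest within-mouse difference, 4.47-fold. The smallest was 1.29-fold in WT mouse 26. Group means were 947 ± 274 in contralateral WT, 896 ± 277 in contralateral KO, 1594 ± 611 in injured WT and 2528 ± 763 in injured KO kidneys (SD, n = 3 each).

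C1qc encodes the C chain. In WT mice 12, 26 and 36 it read 421, 777 and 765 in the contralateral and 644, 1091 and 1621 in the injured kidney. In KO mice 17, 23 and 32 it read 749.8, 473 and 674 in the contralateral and 2292, 1803 and 1338 in the injured kidney. The order of the mice was that of C1qb in the injured kidneys of both genotypes. Group means were 654 ± 202 in contralateral WT, 632 ± 143 in contralateral KO, 1119 ± 489 in injured WT and 1811 ± 477 in injured KO kidneys (SD, n = 3 each).

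C3ar1, the receptor of C3a, read 124, 340.4 and 255 in the contralateral kidneys of WT mice 12, 26 and 36, and 199, 407 and 565 in their injured kidneys. In KO mice 17, 23 and 32 it read 292, 232 and 310.4 in the contralateral and 814, 536 and 471 in the injured kidney. Mouse 12 was the lowest of all mice in both kidneys. Group means were 239.7 ± 109 in contralateral WT, 278 ± 40.9 in contralateral KO, 390.2 ± 184 in injured WT and 607 ± 182 in injured KO kidneys (SD, n = 3 each). The contralateral KO libraries were the most alike, with a coefficient of variation of 14.7%, against 45.5% in contralateral WT.

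C5ar1, the receptor of C5a, read 85.5, 226 and 179 in the contralateral kidneys of WT mice 12, 26 and 36, and 110.1, 274 and 436 in their injured kidneys. In KO mice 17, 23 and 32 it read 191, 146 and 197 in the contralateral and 554, 415 and 319.96 in the injured kidney. As for C3ar1, WT mouse 26 had the smallest response (1.21-fold) and KO mouse 17 the largest (2.91-fold). Group means were 164 ± 71.5 in contralateral WT, 178 ± 27.8 in contralateral KO, 274 ± 163 in injured WT and 429.9 ± 118 in injured KO kidneys (SD, n = 3 each).

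For each of the 5 genes the mean was highest in injured KO, next in injured WT and lowest in the contralateral kidneys, where the order of the genotypes differed between genes. Every injured KO library lay above every contralateral KO library for 5 of the 5 genes, which held for 12.9% of the genes tested. In WT mice no member of the set showed such a separation (3.67% of the genes tested), because injured mouse 12 lay below contralateral mouse 26 in all 5. Injured KO and injured WT libraries overlapped for all 5 (2.64% of the genes tested did not overlap, with KO higher).

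The calls of the averaged comparison depended on the pairing of kidneys. Without the block by mouse the fold changes were 0.92 to 1.15 but 0 of the 5 genes passed (edgeR adjusted p from 0.077 to 0.18). C5ar1 was called whichever mouse was left out, with adjusted p of 0.034 or less, whereas C1qc, C3ar1, C1qb and C1qa were called in 4, 4, 2 and 2 of those 6 fits. The number of calls over the panel moved too. It was 54 with all mice, and 35, 56, 28, 37, 223 and 29 without mouse 12, 17, 23, 26, 32 and 36. Without mouse 12 the adjusted p was 0.12 for C1qa and 0.11 for C1qb. Without mouse 23 it was 0.27, 0.27, 0.10 and 0.063 for C1qa, C1qb, C1qc and C3ar1. Without mouse 26 it was 0.11, 0.096 and 0.056 for the A, B and C chain genes, and without mouse 36 it was 0.13 for C1qa, 0.11 for C1qb and 0.051 for C3ar1. The fold changes in these fits stayed between 0.76 and 1.28.

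**Figure D2:**
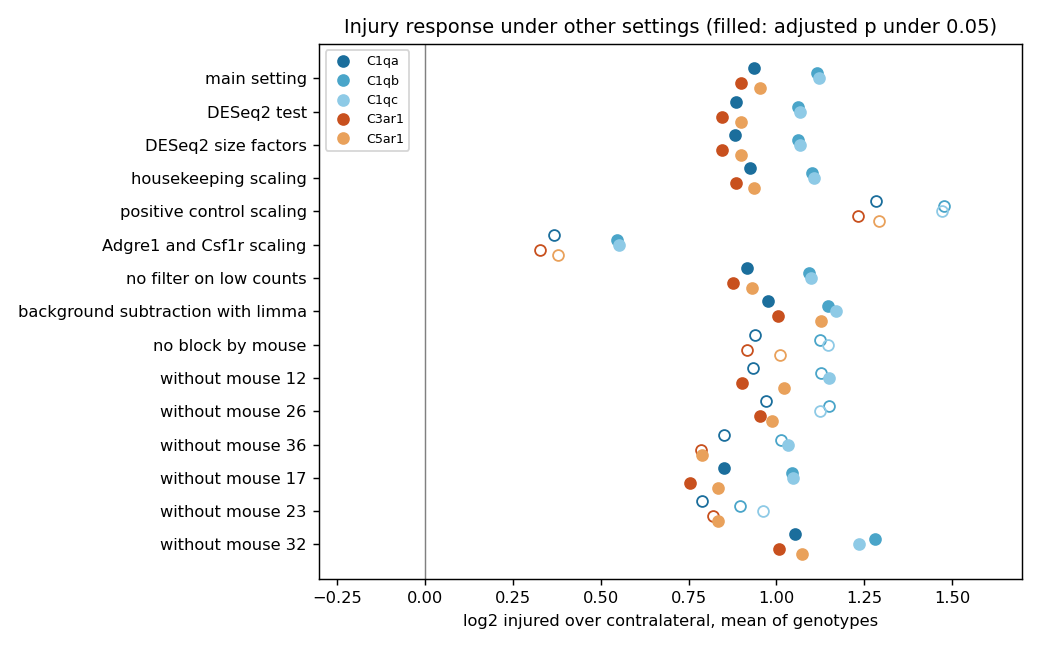
Fitted log2 fold change of the 5 genes in injured over contralateral kidneys, genotypes averaged (x axis), under each setting (y axis), with filled symbols for an adjusted p under 0.05. All values are above 0, from 0.33 with scaling to Adgre1 and Csf1r to 1.48 with scaling to the positive controls, and all 5 symbols are open without the block by mouse and with scaling to the positive controls.

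The macrophage genes used in selecting or defining these cells moved as well. Adgre1, which encodes F4/80, rose by 0.67 ± 0.19 (adjusted p = 0.034), and Csf1r, the receptor of the macrophage growth factor CSF1, stood at 0.47 ± 0.20 (adjusted p = 0.24). The summed normalised counts of the 9 macrophage markers ran from 1249 to 2758 in contralateral WT, 1657 to 2079 in contralateral KO, 1629 to 3932 in injured WT and 2962 to 5285 in injured KO libraries. When libraries were scaled to the geometric mean of Adgre1 and Csf1r, the median of all genes moved to -0.64. On that scale C1qc and C1qb were still called higher, by 0.55 each (adjusted p = 0.034 and 0.044), where 3.08% of the genes tested were called higher. C1qa (0.37), C5ar1 (0.38) and C3ar1 (0.33) did not pass, with adjusted p from 0.078 to 0.094. This scale depends on the genes it was built from. Of the 9 macrophage markers 6 were called higher, with a median of 0.80, and Cd68 (1.31), Itgam (1.27) and Mrc1 (1.26) had larger fold changes than C1qc and C1qb. Scaling to the positive controls, which moved the median of all genes to 0.27, gave 1.23 to 1.48 and called 0 of the 5 (adjusted p from 0.13 to 0.36), while 41 genes of the panel were called, 41 of them higher.

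C5ar1 is shared with neutrophils, so neutrophil markers were read beside it. Of 9 such markers on the panel 8 passed the filter, the antimicrobial peptide gene Camp lay below the background threshold of 53.1 raw counts in all 12 libraries, and 0 of the 8 were called in the averaged comparison (median -0.19). Their summed normalised counts ran from 318 to 1408 in contralateral WT, 769 to 898 in contralateral KO, 297 to 1275 in injured WT and 309 to 1392 in injured KO libraries. The groups overlapped. Dendritic cells can also make C1q. Of 6 dendritic cell markers on the panel 5 passed the filter and 0 were called (median -0.33), with sums of 222 to 509, 479 to 544, 203 to 533 and 214 to 483 in the same order of groups. Raw sums of these 6 were 329 to 444, 313 to 417, 395 to 441 and 275 to 498. For the 9 neutrophil markers the raw sums were 591 to 910, 503 to 688, 608 to 1055 and 719 to 821, again in that order of groups. Counts of both marker sets hold much background, which scaling divides by library size. The 0 calls and negative medians therefore do not show that these cells stayed unchanged or became fewer. The part of neutrophils and dendritic cells in the result was not tested.

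The next question was how the 3 chains moved relative to each other. A ratio of probes inside a library does not depend on how the library is scaled, and its change between the kidneys of a mouse can be read although the probes may differ in efficiency. The ratio of C1qa to C1qb was lower on the injured side in 6 of 6 mice, with a mean change of -0.18 ± 0.20 on the log2 scale (SD, n = 6), with changes from -0.56 in KO mouse 23 to -0.005 in WT mouse 12. The ratio of C1qa to C1qc changed by -0.18 ± 0.14 and was lower in 5 of 6 mice. WT mouse 12, at 0.06, was the exception. The ratio of C1qb to C1qc changed by -0.006 ± 0.16, with 3 mice in each direction. Exact two-sided sign-flip permutation tests gave p = 0.031, 0.063 and 0.94, and adjusted over the 4 ratios tested p = 0.13, 0.13 and 0.94, where 0.031 is the smallest unadjusted p that 6 mice allow. None passed after adjustment. Over 4 ratios, a ratio that alone reaches 0.031 cannot pass, so the adjusted test could not decide whether C1qa over C1qb changed. With the mean negative control subtracted first, C1qa over C1qb was lower in 5 of 6 mice (-0.17 ± 0.20, SD, exact permutation p = 0.063), since mouse 12 turned to 0.0046.

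The ratio of C3ar1 to C5ar1 changed by -0.05 ± 0.20 (SD, n = 6; exact permutation p = 0.56, adjusted p = 0.75). It was lower in 5 of 6 mice and higher, by 0.32, in WT mouse 12. With background subtracted it was -0.12 ± 0.25 (SD, exact permutation p = 0.28). The test did not separate the responses of the receptors, which does not show that they are equal.

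**Figure D3:**
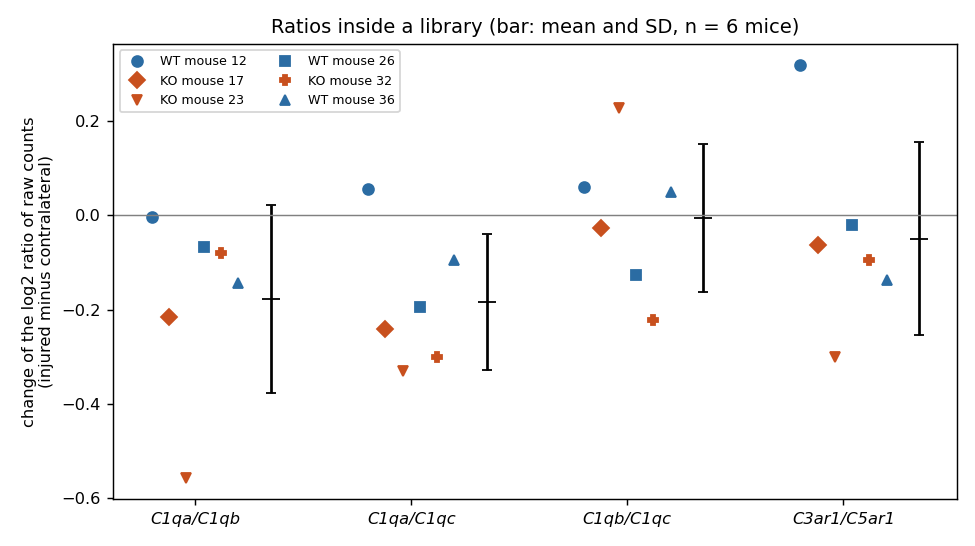
Change of the log2 ratio of raw counts between injured and contralateral kidney (y axis) for 4 pairs of genes (x axis), a symbol per mouse, with the mean and SD of 6 mice. All 6 mice lie below 0 for C1qa over C1qb and 5 of 6 for C1qa over C1qc, while C1qb over C1qc lies on both sides of 0.

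Within each genotype the question was whether the genes responded in WT and in KO mice alike. In KO mice all 5 rose: C1qc by 1.51 ± 0.34, C1qb by 1.51 ± 0.39, C5ar1 by 1.26 ± 0.26, C1qa by 1.22 ± 0.33 and C3ar1 by 1.10 ± 0.27 (log2, SE of the fit). The fit estimates the spread from all 12 libraries together, so this SE is not the spread of the 3 mice of a genotype. Leaving out a WT mouse can therefore change the calls in KO mice. The adjusted p ran from 0.0057 for C5ar1 to 0.034 for C1qa (edgeR), and 6.74% of the genes tested were called, 6.6% higher. In WT mice the values were 0.73 ± 0.33 for C1qc, 0.72 ± 0.38 for C1qb, 0.70 ± 0.26 for C3ar1, 0.65 ± 0.33 for C1qa and 0.65 ± 0.26 for C5ar1. None of the 5 passed in WT mice (edgeR adjusted p from 0.36 to 0.70), where 0.733% of the genes tested were called higher. Unadjusted, 3 of the 5 had an edgeR p under 0.05 there, as did 57 of the 682 genes tested. DESeq2 called 0 of the 5 and 9 genes of the panel. Leaving out any mouse other than 32 lost calls among the 5. Without KO mouse 32 all 5 stayed called, at larger fold changes of 1.39 to 1.92 (edgeR adjusted p of 3.4e-05 or less). In that fit 370 genes of the panel were called. Without KO mouse 23, 0 of the 5 were called (1.0003 to 1.27, adjusted p from 0.15 to 0.42), and 14 genes of the panel instead of 46. Without mouse 12, 17, 26 or 36, 2, 3, 3 and 4 of the 5 were called, and 34, 39, 35 and 39 of the panel. The fold changes of the 5 then lay between 0.90 and 1.52. The block by mouse mattered here too, since without it 0 of the 5 passed in KO mice (adjusted p from 0.15 to 0.36).

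**Figure D4:**
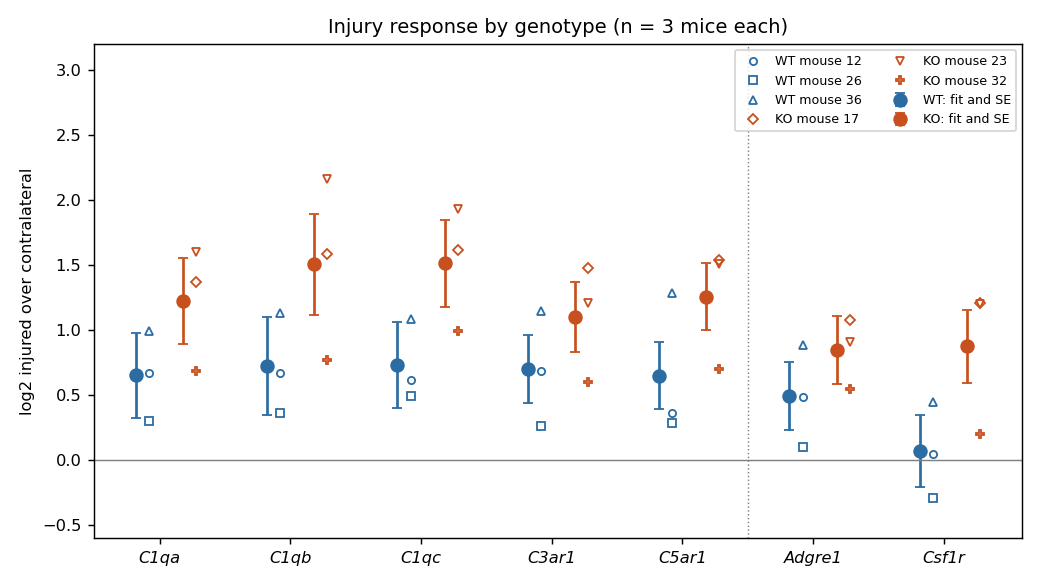
Log2 difference between injured and contralateral kidney (y axis) in WT and KO mice for the 5 genes and, right of the dotted line, for the macrophage genes Adgre1 and Csf1r. Filled circles are fitted values with their SE, from a spread estimated over all 12 libraries. The small symbols to their right are single mice (n = 3 per genotype). KO estimates lie above WT estimates for every gene, with single mice of the genotypes overlapping.

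The fitted response of each gene was larger in KO than in WT mice, but the test of the difference itself did not pass for any. The response in KO minus that in WT mice was 0.78 ± 0.47 for C1qc, 0.78 ± 0.54 for C1qb, 0.61 ± 0.36 for C5ar1, 0.57 ± 0.46 for C1qa and 0.40 ± 0.37 for C3ar1 (SE, edgeR adjusted p from 0.41 to 0.51). The median of the 5 was 0.61, against -0.02 for all genes and 0.47 for the 9 macrophage markers. The 5 genes outside the set most like C1q, named below, stood at 0.62 to 0.99. A larger estimate in KO mice is thus not particular to the genes described. In this comparison 0% of the 682 genes were called by edgeR and 0 by DESeq2, while 75 genes, none of the 5 among them, had an unadjusted p under 0.05. The within-mouse responses of the genotypes overlapped for all 5 genes (4.69% of the genes tested did not overlap, with KO higher). In each case KO mouse 32 lay below WT mouse 36. For C1qc, mouse 32 stood at 0.99 against 1.61 and 1.93 in KO mice 17 and 23, and against 0.61, 0.49 and 1.08 in WT mice 12, 26 and 36.

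The calls of this comparison depended on KO mouse 32. Without it the differences were 1.27 for C1qb, 1.16 for C1qc, 0.99 for C5ar1, 0.95 for C1qa and 0.76 for C3ar1, and all 5 passed (edgeR adjusted p from 0.0054 to 0.046). In that fit 47.4% of all genes were called and 23.5% were called higher, so the calls of the 5 genes are not particular to them. The injured library of mouse 32 had the lowest housekeeping level of all 12 (118), 0.75 times that of its contralateral kidney, against 4.28 times in mouse 17 and 1.89 times in mouse 23. In WT mice these ratios were 1.02, 1.30 and 0.63. The fitted responses of Csf1r and Adgre1 were also larger in KO mice, by 0.81 ± 0.39 and 0.35 ± 0.37, but neither difference passed (edgeR adjusted p = 0.41 and 0.55). With scaling to Adgre1 and Csf1r the differences were between -0.18 and 0.20. The part that RNA content and macrophage markers have in the difference was not tested.

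A further question was whether the genotypes differed in level within the same kidney. In contralateral kidneys the fitted KO minus WT difference was 0.22 ± 0.43 for C3ar1, 0.13 ± 0.47 for C5ar1, 0.01 ± 0.40 for C1qa, -0.05 ± 0.43 for C1qc and -0.08 ± 0.45 for C1qb (log2, SE, n = 3 against 3 mice). None passed (edgeR adjusted p from 0.79 to 0.99), and 0% of all genes did. DESeq2 called 0 genes, and 3 genes had an unadjusted p under 0.05. The edgeR fit for both kidneys estimates the spread from all 12 libraries without the block by mouse. It treats the kidneys of a mouse as independent, so its SE is not the spread of 3 against 3 mice alone. In injured kidneys the differences were 0.70 ± 0.43 for C1qc, 0.67 ± 0.45 for C1qb, 0.66 ± 0.46 for C5ar1, 0.64 ± 0.43 for C3ar1 and 0.58 ± 0.41 for C1qa. None of these passed either (edgeR adjusted p = 0.9999 for each, 0% of all genes called, 5 genes with an unadjusted p under 0.05 and 3 genes called by DESeq2, none of them among the 5). The sizes of the injured differences depended on single WT mice and on scaling. They were 0.23 to 0.38 without mouse 12, 0.85 to 1.17 without mouse 36, 0.07 to 0.27 with scaling to Adgre1 and Csf1r and 1.06 to 1.31 with scaling to the positive controls. Without KO mouse 17 they were 0.38 to 0.50. Over the mean of both kidneys of each mouse the values ran from 0.30 ± 0.38 for C1qb to 0.52 ± 0.41 for C5ar1 (limma adjusted p = 0.96 for each, 0% of all genes called, 3 with an unadjusted p under 0.05). Without WT mouse 12, C1qa and C1qb stood at -0.01 in that comparison and C3ar1 at 0.06.

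The other complement genes of the panel give the setting. Of 12 complement genes on the panel, 9 passed the filter, 7 of these 9 were called higher in the averaged injury comparison and 0 lower, where 7.33% of all genes tested were called higher and 0.587% lower. The 7 include the 5 genes already counted. The other 2 that rose encode the subunits of complement receptor 3, the integrin that binds the opsonin iC3b: Itgam, its alpha chain, by 1.27 ± 0.19 (adjusted p = 0.00051) and Itgb2, its beta chain, by 0.65 ± 0.17 (adjusted p = 0.027). Itgam was higher on the injured side in 6 of 6 mice, from 1.34-fold in WT mouse 26 to 4.07-fold in KO mouse 17, and Itgb2 from 1.18-fold in WT mouse 26 to 1.96-fold in WT mouse 36. In KO mice Itgam passed besides the 5 genes described above (1.51 ± 0.27, adjusted p = 0.0031), and in WT mice 0 of the 9 did. The list was drawn up with earlier results of these data known.

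The genes of the anaphylatoxin precursors gave the following values. C3, the source of C3a, missed the threshold at 0.48 ± 0.15 (adjusted p = 0.060). Its normalised counts lay close together within groups, at 144 ± 14.99 and 143 ± 12.0 in contralateral kidneys of WT and KO mice and at 197 ± 5.59 and 202 ± 14.8 in injured ones (SD, n = 3 each). All 6 injured libraries, from 185 to 211, lay above all 6 contralateral libraries, from 127 to 157, which held for 1.47% of the genes tested and for 0 of the 5 genes described here. The within-mouse difference of C3 ran from 1.25-fold to 1.59-fold. Hc, which encodes C5, the source of C5a, gave 17 to 48 raw counts, below the threshold of 53.1 in all 12 libraries, and was not tested. C4a, which encodes a form of the classical pathway component C4, was counted 34 to 166 times and stood at 0.13 ± 0.21 (adjusted p = 0.78). Fcnb, a ficolin of the lectin pathway, and Itgax, the alpha chain of complement receptor 4, reached the threshold in 1 and 2 libraries and were not tested.

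**Figure D5:**
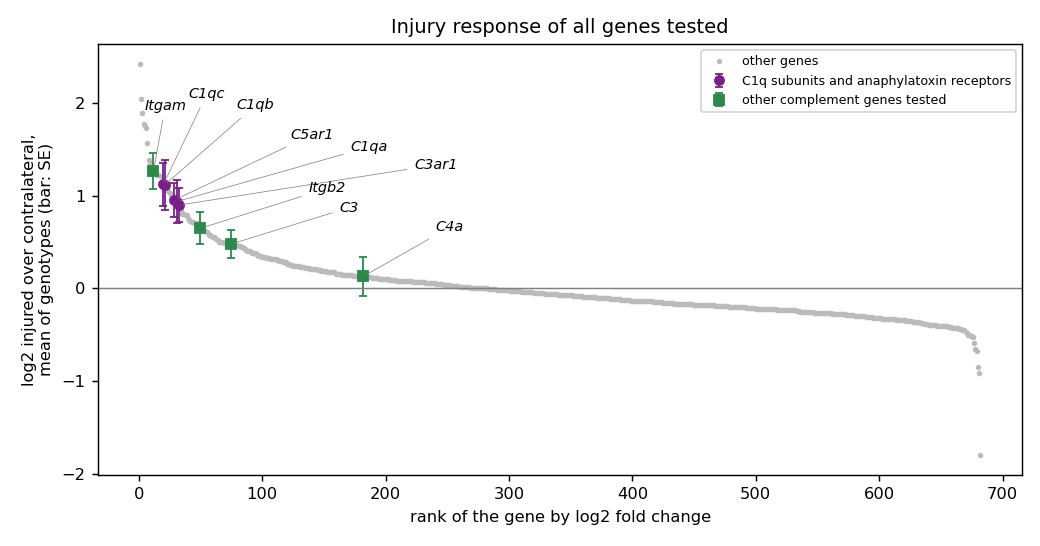
Log2 fold change of injured over contralateral kidneys, genotypes averaged (y axis), of the 682 genes tested against their rank (x axis), with the 5 genes (circles) and the other complement genes tested (squares) with their SE. The 5 genes lie at ranks 20 to 33, Itgam at rank 12 and C4a at rank 182.

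C3ar1 and C5ar1 were also set beside the other chemoattractant receptors on the panel. Of 10 such receptor genes that passed the filter, 2 rose and 0 fell, with a median of -0.10, against 7.33% and 0.587% of all genes tested. The 2 are C3ar1 and C5ar1 themselves, so 0 of the other 8 were called. The formyl peptide receptor genes Fpr1, Fpr2 and Fpr3, whose products sense bacterial and mitochondrial peptides, stood at -0.14 ± 0.23, -0.23 ± 0.20 and -0.35 ± 0.26, and none passed (adjusted p from 0.60 to 0.78). Their raw counts ran from 57 to 141 for Fpr1, from 101 to 192 for Fpr2 and from 43 to 88 for Fpr3. Ptafr, the receptor of platelet-activating factor, stood at 0.48 ± 0.18 (adjusted p = 0.16).

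Receptors and adaptors for the uptake of dead cells and immune complexes, targets that C1q can mark, were read as a further list. Of 20 such genes tested, 9 rose and 0 fell in the averaged comparison, with a median of 0.47. Over all genes tested 7.33% rose and 0.587% fell, with a median of -0.07. The largest changes were those of the mannose receptor gene Mrc1 (1.26 ± 0.19), the scavenger receptor gene Stab1 (1.23 ± 0.21), the adaptor gene Tyrobp (1.21 ± 0.22) and the activating Fc receptor gene Fcgr3 (1.15 ± 0.19). Trem2, whose product signals through the Tyrobp adaptor (1.13 ± 0.18), Havcr1 (1.01 ± 0.19), the high-affinity Fc receptor gene Fcgr1 (0.94 ± 0.16), Sirpa (0.84 ± 0.19), which encodes a receptor of the inhibitory signal CD47, and the inhibitory Fc receptor gene Fcgr2b (0.71 ± 0.19) also rose, each with an adjusted p of 0.027 or less. Mertk, a receptor for dying cells, stood at 0.08 ± 0.15 (adjusted p = 0.81). Havcr1 is also a marker of injured tubule cells.

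The 3 chain genes ran together over the 12 libraries, and so did both receptors. Pearson correlations of log2 normalised counts were 0.98 to 0.99 among C1qa, C1qb and C1qc and 0.99 between C3ar1 and C5ar1, and 0.92 to 0.97 between a chain and a receptor. Of genes outside the set, the most like C1q were Ctss, which encodes the lysosomal protease cathepsin S (mean r 0.99), Mpeg1, which encodes the pore-forming perforin-2 (0.98), Tyrobp (0.98), Cd68, a lysosomal glycoprotein of phagocytes (0.97), and Fcgr3 (0.97). The most like C3ar1 were Mrc1 (0.98), Mpeg1 (0.98), Adgre1 (0.98), the fractalkine receptor gene Cx3cr1 (0.97) and Fcgr2b (0.97). For C5ar1 the same genes came first in another order, led by Mpeg1 and Adgre1 (0.98 each). The median r over all other genes was 0.01 for C1q, 0.16 for C3ar1 and 0.17 for C5ar1. These values are descriptions. The 12 libraries share 6 mice, and all values share each library's scale.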

How the data were processed

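NanoString counts of 768 probes in 12 libraries were used as deposited. Per the labels' protocols, kidneys were digested, cells were selected with a biotinylated F4/80 antibody on an immunomagnetic kit, and RNA was isolated with a column kit. Neither labels nor files name the panel, counting software or cartridge, so no batch could be examined. The deposited counts are whole numbers with unequal totals and unscaled control probes, and were taken as raw. The probes comprised 734 endogenous genes, 20 housekeeping genes by name, 6 positive and 8 negative controls. Probe sequences were not used here. All 5 symbols matched a RefSeq table of GRCm38.p6, used only for gene order.

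Genes were kept with 53.1 counts (mean plus 2 SD of the negative controls) or more in at least 3 libraries, leaving 682. Counts were scaled by TMM. Injury comparisons used edgeR 4.0.16 (R 4.3.3) on all 12 libraries with mouse as a block, and genotype comparisons edgeR on the 4 group means, or limma 3.58.1 on mouse means of log2 counts (prior count 1). P-values were Benjamini-Hochberg adjusted over the 682 genes, with 0.05 as threshold. The SE of an edgeR fold change is its size over the square root of F. Alternatives were DESeq2 1.42.0, other scalings, no filter, background subtraction, no block and leaving out each mouse.

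Both kidneys of a mouse are paired by the animal, as the series' design text states. Deviations of the kidneys of a mouse from their group means correlated at 0.72 to 0.96 across genes in WT mice and at -0.49 to 0.37 in KO mice. No replicates agreed within sampling noise (lowest chi-square per degree of freedom 5.96). Members, lists and tests were chosen with earlier results of these data known. Genes named are the 5 members, complement, uptake and chemoattractant receptor genes called in the averaged comparison, the 5 most correlated genes each for C1q and the receptors, and reference genes. C3, C4a, Hc, Fcnb, Itgax, the Fpr genes, Ptafr, Mertk, Camp, Fbp1 and Itgb2's single-mouse values were added after their values were seen.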

Additional observations from a re-analysis of the deposited data

How the results depend on the processing

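In the averaged injury comparison and in KO mice, 5 of the 5 genes were called, and DESeq2 (also its size factors in edgeR), housekeeping scaling, no filter and background subtraction gave 5 as well. Over the panel, DESeq2's size factors, housekeeping scaling, no filter and background subtraction called 45, 47, 50 and 53 genes in the averaged comparison. In KO mice they called 59, 32, 53 and 44. Without the replicate block, and with positive control scaling, 0 were called in either comparison. With scaling to Adgre1 and Csf1r the numbers were 2 and 1. Positive control scaling called 41 genes of the panel in the averaged comparison and 33 in KO mice. Over the whole panel, 54 genes were called in the averaged comparison (50 higher), against 14 without the block (14 higher) and 333 with scaling to Adgre1 and Csf1r (21 higher). In KO mice these counts were 46 (45 higher), 3 (3 higher) and 410 (16 higher), and DESeq2 called 90 (59 higher). Leaving out a mouse gave 1 to 5 of the 5 genes in the averaged comparison, 0 to 5 in KO mice, 0 to 2 in WT mice (C3ar1 and C5ar1 without mouse 32) and 0 to 5 for the difference of the responses. Over the panel the same fits called 28 to 223, 14 to 370, 0 to 48 and 0 to 323 genes in that order. The highest number came without mouse 32 each time. The fold changes of the injury comparisons kept their direction in every setting run. The difference of the responses reversed with scaling to Adgre1 and Csf1r for C1qa (-0.0094) and C3ar1 (-0.18), and the cause was not tested.

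Genotype differences in contralateral kidneys had no stable direction. C1qa turned to -0.11 with DESeq2 and with its size factors, -0.12 without the filter and -0.56 with positive control scaling, under which C3ar1 read -0.28 and C5ar1 -0.39. With housekeeping scaling C1qb read 0.064 and C1qc 0.10, and with scaling to Adgre1 and Csf1r C1qc read 0.0047. Leaving out a mouse gave -0.29 to 0.11 for C1qa, -0.34 to 0.066 for C1qb, -0.33 to 0.080 for C1qc, -0.14 to 0.42 for C3ar1 and -0.23 to 0.29 for C5ar1. Over both kidneys the ranges were -0.011 to 0.50 for C1qa, -0.013 to 0.48 for C1qb and -0.00043 to 0.80 for C5ar1. No setting called any of these. The ratio changes ranged from -0.21 to -0.10 for C1qa over C1qb, -0.23 to -0.16 for C1qa over C1qc, -0.053 to 0.037 for C1qb over C1qc and -0.12 to 0.00036 for C3ar1 over C5ar1 when a mouse was left out. The lowest count, 112, lay 3.56 times above background, and each genotype had 3 mice; which of these limits precision more was not tested.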
